A study of Homo sapiens with 6 samples.

Results

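The genes described here are 9 genes of, or related to, calcium signalling through calmodulin. They are the calmodulin genes CALM2 and CALM3, the small calmodulin-binding protein PCP4 and its relative PCP4L1. The others are the calcineurin subunits PPP3CA, PPP3CB, PPP3CC and PPP3R1, and the calcineurin regulator RCAN1. All 9 were found by gene name among the 43317 gene names of the array and were read by 13 of its 58201 probes. Their choice rested in part on the values below: PCP4L1 was taken because it was evenly low in both miRNA lines, and PPP3CA because it was low in the miR-421 line only. The values of these 2 genes are therefore given as a description, with no test.

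All RNA came from 22RV1, a long-established human line of prostate cancer cells, positive for SPINK1 per the labels. Stable lines carried a lentiviral vector for miR-338-5p (pLemiR-338-5p), for miR-421 (pLemiR-421) or, in the control line, for red fluorescent protein (pLemiR-RFP), and all of them were kept in puromycin. RNA of a miRNA line (Cy5) and of the control line (Cy3) shared each of 6 arrays, with no dye swap: 3 arrays for miR-338-5p (replicates 1, 2 and 3) and 3 for miR-421 (a pool and replicates 1 and 2). The labels say neither whether a line was 1 clone or many cells, nor what the pool held, nor whether replicates were separate cultures, so each p-value measures the spread between these samples, which may be technical. The series title sets both miRNAs in SPINK1-positive prostate cancer, and the comparison asked here is how each line differed from control.

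Calmodulin is a small protein that binds calcium and then switches on other proteins. Calcineurin, the phosphatase it activates, joins a catalytic A subunit (PPP3CA, PPP3CB or PPP3CC) to a calcium-binding B subunit (PPP3R1), and strips phosphate from NFAT transcription factors so that they enter the nucleus. PCP4 binds calmodulin through an IQ motif and speeds its exchange of calcium, and PCP4L1 is its close relative. RCAN1 binds and restrains calcineurin and is itself a target of NFAT.

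A miRNA finds messenger RNAs mainly through its seed, bases 2 to 8, shown in capitals in the mature sequences from RefSeq (GRCh38.p14; chr17:81125923-81125944 and chrX:74218392-74218414, both on the minus strand). The seeds of both miRNAs differ, so a match to one is not a match to the other.

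hsa-miR-338-5p: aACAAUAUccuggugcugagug

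hsa-miR-421: aUCAACAGacauuaauugggcgc

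The array's own 60-base probes were searched, on the given strand only, for the letters that pair with each seed, ATATTGT for miR-338-5p and CTGTTGA for miR-421. These were in 0.478% and 0.558% of all 58201 probes. None of the 13 member probes held either (0 of 13). The probes cover a small part of each transcript, so the search says nothing of sites elsewhere.

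Of the 13 member probes, 12 were bright enough to test, as were 27497 of all probes, and 8 of the 9 genes had a tested probe. Values are log2 ratios of the miRNA line over control after normalization, so that a value below 0 is a signal below control. In bulk RNA, fewer cells with a transcript and less of it per cell cannot be told apart. The defining genes of a prostate epithelial line were above background in control RNA on all 6 arrays for 9 of 9 genes, at percentiles 88.8 to 99.3 of all probes. For blood, endothelial, fibroblast and neuronal markers this was 2 of 3, 2 of 3, 3 of 4 and 3 of 4, at percentiles from 8.78 to 94.4.

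**Figure D1:**
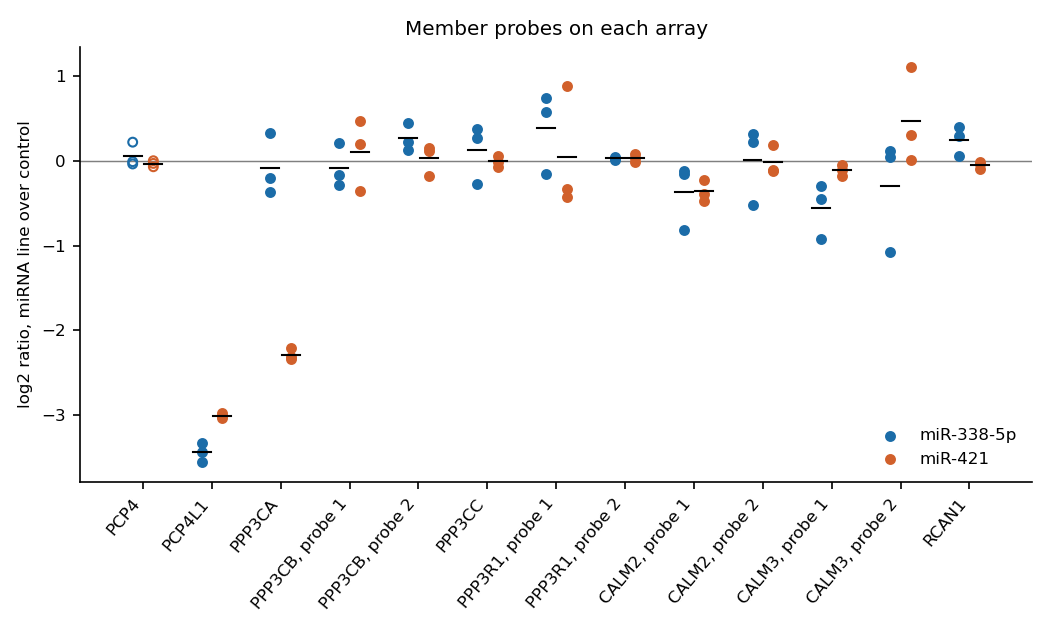
Log2 ratio of the miRNA line over control for each of the 13 member probes, with a point for each array and a bar at the mean of 3 arrays; the open points of PCP4 did not pass the brightness filter. PCP4L1 is far below 0 in both lines (means -3.45 and -3.01) and PPP3CA only in the miR-421 line (-2.29), while the means of all other probes lie between -0.56 and 0.48.

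The PCP4 family came down to 1 expressed member. PCP4 (NM_006198, probe at chr21:41301047-41301106, hg19) was well above background on 0 of 6 arrays in control RNA and on 2 of 6 in the miRNA lines, so it has no usable ratio. PCP4L1 (NM_001102566, probe at chr1:161255021-161255080) was well above background in both dyes on all 6 arrays. Its signal in the miR-338-5p line was 9.92%, 9.17% and 8.49% of control on replicates 1, 2 and 3. In the miR-421 line it was 12.1% in the pool, 12.3% on replicate 1 and 12.7% on replicate 2. Every miRNA sample was thus far below its control, with the miR-338-5p samples a little below the miR-421 samples and no overlap between them.

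As log2 ratios these were -3.45 ± 0.11 in the miR-338-5p line and -3.01 ± 0.03 in the miR-421 line (SD, n = 3 each), or 10.9-fold and 8.07-fold below control. PCP4L1 was the 3rd lowest of 27497 tested probes in the miR-338-5p line and the 13th lowest of 27492 in the miR-421 line. The SD of the miR-421 samples was among the small ones: 7.29% of tested probes had a smaller SD there, and the median SD was 0.14. That of the miR-338-5p samples was not, as 41.6% of tested probes had a smaller SD there. PCP4L1 was chosen in part for an even fall, so nothing is read from these shares. The control level ran from 10.46 to 10.71 over the 6 arrays on the log2 intensity scale. The level in the miRNA lines was 7.25, 7.13 and 7.005 for miR-338-5p and 7.42, 7.69 and 7.66 for miR-421. The gap between the lines, 0.43 on the log2 scale, therefore sat in the miRNA lines' own signal.

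**Figure D2:**
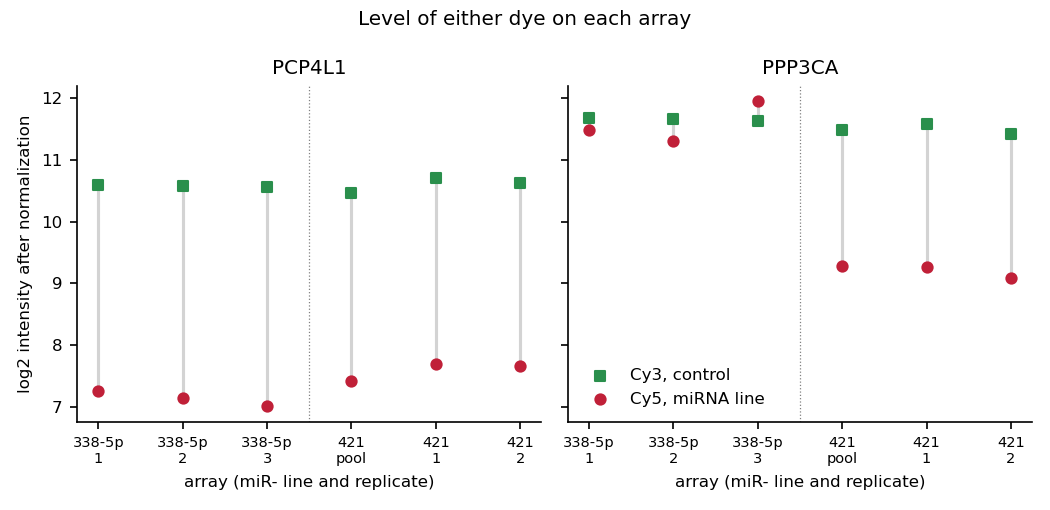
Normalized log2 intensity of the PCP4L1 probe (left) and the PPP3CA probe (right) on each array, with control RNA in Cy3 as squares and miRNA line RNA in Cy5 as circles; the axis does not start at 0. Control levels are nearly flat in both panels, PCP4L1 is low in all 6 miRNA samples, and PPP3CA is low in the 3 miR-421 samples only.

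Around PCP4L1 on chromosome 1, the 13 genes with the highest control levels did not share its fall, while the dimmer ADAMTS4 fell in both lines. Within 500 kb, 32 other genes were tested, with medians of 0.03 in the miR-338-5p line and 0.02 in the miR-421 line. Of these, 5 and 7 passed the test, beside 9.23% and 22.7% of all genes. ADAMTS4, APOA2 and lnc-PCP4L1-1 passed as lower in both lines and DEDD as higher in both, and the rest in a single line. A control level of 9 or more on the log2 intensity scale, set after the values were seen, was met by 13 of the 32. Their means lay between -0.28 and 0.56 in the miR-338-5p line and between -0.45 and 1.03 in the miR-421 line. The other 19 were dimmer, many of them close to background, where a fall as large as that of PCP4L1 could not be measured. The lowest of them was ADAMTS4, a secreted protease that cleaves aggrecan, whose probe lies 95.4 kb from that of PCP4L1. It fell by 1.98 ± 0.08 in the miR-338-5p line and by 2.03 ± 0.06 in the miR-421 line (SD, n = 3 each; limma adjusted p 0.00039 and 0.000363). The ADAMTS4 probe was well above background in both dyes on all 6 arrays, with a control level of 8.44 to 8.66. A somewhat lower cut would have placed it among the brighter genes. The nearest, the long noncoding RNA lnc-PCP4L1-1 at 10.9 kb, passed as lower in both lines (limma adjusted p 0.0171 and 0.00992). So did APOA2 at 62.7 kb (limma adjusted p 0.00921 and 0.00538). Neither was well above background in the miRNA lines on any array (0 of 6), so no size is given for their changes.

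By the smallest root mean square distance of log2 ratios over the 6 arrays, among 15586 genes with a symbol, the patterns most like that of PCP4L1 were those of ASS1, AKR1C3, CLDN11, CORO1A and TFRC. The distance was 0.50 for ASS1, the argininosuccinate synthase, and 0.91 to 1.13 for the others. ASS1 was at -3.68 ± 0.18 and -3.61 ± 0.24 (SD, n = 3 each). AKR1C3, a steroid-reducing enzyme, shared the mean level but not the evenness, with -2.07, -3.02 and -4.55 on the miR-338-5p arrays.

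Of the catalytic subunits of calcineurin, PPP3CA differed most between the lines. Its probe (NM_000944, chr4:101945294-101945353, minus strand, hg19) read 21.5% of control in the miR-421 pool, 20.0% on replicate 1 and 19.8% on replicate 2. On the miR-338-5p arrays it read 87.1%, 77.5% and 125% of control. The miR-421 samples were all low and close to each other, and the miR-338-5p samples lay on both sides of control, with no overlap between the lines.

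The log2 ratios were -2.29 ± 0.07 in the miR-421 line (4.90-fold below control) and -0.08 ± 0.36 in the miR-338-5p line (SD, n = 3 each), a difference of 2.21. PPP3CA was the 31st lowest of 27492 tested probes in the miR-421 line and 9065th lowest of 27497 in the miR-338-5p line. Control levels were 11.68, 11.67 and 11.62 on the miR-338-5p arrays and 11.49, 11.58 and 11.42 on the miR-421 arrays. Levels in the miRNA lines were 11.48, 11.30 and 11.95 for miR-338-5p and 9.27, 9.26 and 9.08 for miR-421. The control levels of both sets of arrays differed by 0.16 and the miRNA line levels by 2.37, so nearly all of the difference was in Cy5.

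The other catalytic subunits did not share this value. PPP3CB (chromosome 10) was read by 2 probes. The brighter (chr10:75196756-75196815) had log2 ratios of 0.21, -0.17 and -0.28 on the miR-338-5p arrays and 0.47, -0.35 and 0.20 on the miR-421 arrays. Its lines overlapped, and neither mean passed the test (-0.08 and 0.11; limma adjusted p 0.807 and 0.697). The dimmer (chr10:75204358-75204417) had means of 0.27 ± 0.16 and 0.03 ± 0.18 (SD, n = 3 each; limma adjusted p 0.132 and 0.854). PPP3CC (chromosome 8) had log2 ratios of 0.38, -0.27 and 0.28 on the miR-338-5p arrays and -0.01, 0.06 and -0.07 on the miR-421 arrays. Its means, 0.13 and -0.01, did not pass (limma adjusted p 0.585 and 0.981), and the 95% interval of its miR-421 mean was -0.31 to 0.30.

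PPP3R1, the regulatory B subunit, was read by 2 probes on chromosome 2. The brighter (chr2:68406210-68406269) had log2 ratios of 0.58, 0.75 and -0.15 on the miR-338-5p arrays and 0.89, -0.33 and -0.42 on the miR-421 arrays. Its samples scattered over more than 1 log2 unit within the miR-421 line, and its 95% interval there was -0.67 to 0.76. The dimmer (chr2:68408079-68408138) was well above background on 4 of 6 arrays in control RNA and had ratios between -0.01 and 0.08 on all 6. Neither probe passed in either line (limma adjusted p 0.457 to 0.931).

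Some of the probes near that of PPP3CA on chromosome 4 were low in the same samples. Distances here are between probes. LOC100131829 and an unnamed transcript, counted below as other transcripts, have probes between that of PPP3CA and that of its divergent transcript. They may thus lie within PPP3CA itself, which was not tested. Within 500 kb, 5 other genes or unnamed transcripts were tested, and 2 of them, FLJ20021 and an unnamed probe that starts 1 base away on the same strand, read the same site. With that site counted once, 2 of 4 passed in the miR-421 line, both lower, beside 12.6% of all genes that passed as lower. In the miR-338-5p line 1 of 4 passed, as lower, beside 5.25% of all genes. The median log2 ratios were -1.15 in the miR-421 line and -0.17 in the miR-338-5p line, and nothing is read from such small counts. The 500 kb window and the wider ones that follow were chosen with values in view. FLJ20021 (NR_033874), which RefSeq now names PPP3CA-DT, a divergent transcript beside PPP3CA, has its probe at chr4:102269986-102270045. It was at -2.23 in the miR-421 pool, -2.20 on replicate 1 and -2.07 on replicate 2, and at -0.30, 0.02 and 1.29 on the miR-338-5p arrays. The unnamed probe at that site gave means of -2.13 and 0.42. LOC100131829 (chr4:102227142-102227201, minus strand) was at -2.39 ± 0.34 in the miR-421 line and at -1.25 ± 0.45 in the miR-338-5p line (SD, n = 3 each).

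The low values went on to both sides. SLC39A8, a zinc and manganese transporter 1.24 Mb away (chr4:103182951-103183010), was at -1.64, -1.61 and -2.16 on the miR-421 arrays and at -0.08, 0.19 and 0.33 on the miR-338-5p arrays. DDIT4L, an inhibitor of mTORC1 signalling 0.84 Mb away on the other side (chr4:101107080-101107139), was at -1.90, -2.79 and -1.39 on the miR-421 arrays and at -0.41, 0.18 and 0.25 on the miR-338-5p arrays. BANK1, a B cell scaffold protein gene that lies between PPP3CA and SLC39A8 and was dim here (control level 6.51 to 6.73), was at -0.65 ± 0.13 in the miR-421 line and 0.06 ± 0.37 in the miR-338-5p line (SD, n = 3 each). It was not well above background in any miR-421 sample, so the first value can understate its fall.

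RefSeq lists 5 protein-coding genes from DDIT4L to SLC39A8. EMCN, the endothelial sialomucin endomucin, was not tested, and the other 4 (DDIT4L, PPP3CA, BANK1 and SLC39A8) were lower in the miR-421 line in all 3 samples. Counting also noncoding and unnamed transcripts, and the FLJ20021 site once, 7 others were tested over these 2.08 Mb. Of them, 5 passed the test against control in the miR-421 line, all lower, beside 12.6% of all genes that passed as lower. In the miR-338-5p line 1 passed, LOC100131829, beside 5.25%. The medians of the 7 were -1.81 and 0.0055. DDIT4L and SLC39A8, taken as the ends of the stretch after their low values were seen, are among the 4, the 5 and the 7. PPP3CA, also among the 4, was chosen for its low value in the miR-421 line. The miR-421 counts and median, and the shared direction of the 4 coding genes, were thus partly fixed by these choices, and nothing is read from them.

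The 2 that did not follow were lnc-PPP3CA-2, which was near background (control level 6.01 to 6.09; log2 ratio -0.02), and an unnamed transcript. The probe of the latter lies 0.13 Mb from that of PPP3CA, on the side of the divergent transcript. It had a control level of 8.85 to 9.59 and was at -0.13 ± 0.24 in the miR-421 line (SD, n = 3). Beyond the stretch but within 10 Mb, 68 genes had medians of -0.07 in the miR-421 line and -0.01 in the miR-338-5p line. Of these, 16 passed as lower in the miR-421 line (23.5%, beside 12.6% of all genes) and 6 in the miR-338-5p line (8.82%, beside 5.25%). In the miR-421 line 4 had a mean below -1, and the lowest was at -1.54. The nearest coding genes measured outside were H2AFZ, a histone variant gene at -0.82 ± 0.25, and NFKB1, a transcription factor subunit at -0.32 ± 0.21 (SD, n = 3 each). The difference between the lines did not pass the test for any of the 7 by itself. The adjusted p was 0.056 for SLC39A8 and higher for the others, with 0.0461% of all genes past the threshold in that comparison. These arrays measured RNA only.

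**Figure D3:**
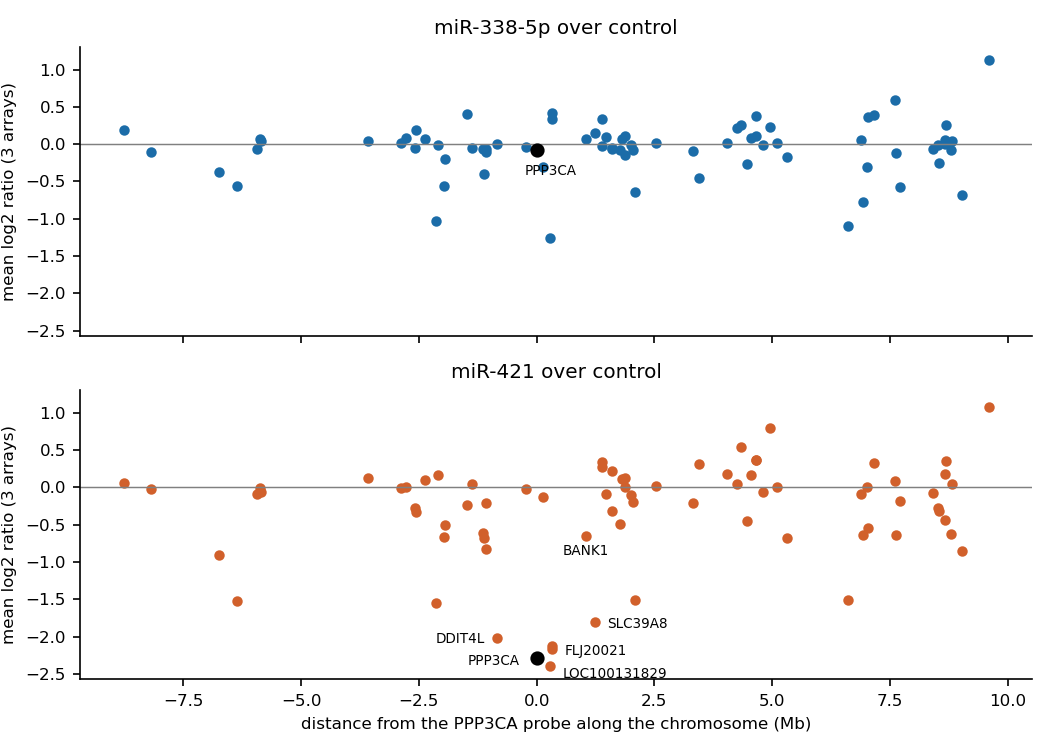
Mean log2 ratio over 3 arrays of each tested gene within 10 Mb of the PPP3CA probe, against distance in megabases, for miR-338-5p (top) and miR-421 (bottom); the black point is PPP3CA. In the miR-421 line, DDIT4L, PPP3CA, LOC100131829, FLJ20021 and SLC39A8 lie between -2.39 and -1.81, BANK1 (-0.65) and 2 others of that stretch lie higher, and most points outside it lie near 0. In the miR-338-5p line LOC100131829 is at -1.25 and the rest of the stretch is between -0.30 and 0.42.

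A ranking of patterns over the whole array used the same log2 ratios, so it is no separate support for the values above. By root mean square distance over the 6 arrays among the 15586 genes whose array name is in RefSeq, the 5 patterns most like that of PPP3CA were those of SLC39A8 (0.44), DDIT4L (0.51), CFC1 (0.58), SOCS2 (0.65) and ZFP36L2 (0.65). The first 2 are the chromosome 4 neighbours above. FLJ20021, whose array name is not in RefSeq, was left out by this limit and was at a distance of 0.442. CFC1, a co-receptor of NODAL signalling on chromosome 2, was lower still in the miR-421 line, at -2.99 ± 0.22, and at 0.06 ± 0.29 in the miR-338-5p line (SD, n = 3 each). SOCS2, a suppressor of cytokine signalling, and ZFP36L2, a protein that destabilizes messenger RNAs, were at -1.93 ± 0.12 and -1.60 ± 0.47 in the miR-421 line.

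The calmodulin genes CALM2 and CALM3 code for the same protein with different messenger RNAs. CALM2 was read by 2 probes on chromosome 2. One (chr2:47387348-47387407) was lower than control in all 6 samples, at -0.11, -0.81 and -0.16 on the miR-338-5p arrays and -0.39, -0.22 and -0.47 on the miR-421 arrays. Its means, both -0.36, did not pass the test (limma adjusted p 0.174 and 0.126), although the second did without miR-338-5p replicate 2 (limma adjusted p 0.0269; range over 16 alternatives 0.0269 to 0.524). The other (chr2:47387878-47387937) lay on both sides of 0, with means of 0.01 ± 0.46 and -0.01 ± 0.17 (SD, n = 3 each; limma adjusted p 0.979 and 0.974). The unadjusted 95% intervals of both probes in the miR-421 line were -0.71 to -0.01 and -0.42 to 0.40.

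The 2 probes of CALM3 did not give the same result. One, at transcript position 1977 (chr19:47113758-47113817), was at -0.45, -0.93 and -0.29 on the miR-338-5p arrays and at -0.17, -0.11 and -0.04 on the miR-421 arrays. All 6 samples were below control, and the lines did not overlap. Its mean of -0.56 ± 0.33 in the miR-338-5p line (SD, n = 3) was just past the threshold (limma adjusted p 0.0446), and it passed in only 4 of 16 alternative analyses, where adjusted p ranged from 0.0406 to 0.348. The call was lost when any of the 6 arrays was left out (limma adjusted p 0.0519 to 0.11). The difference between the lines was -0.45 (limma adjusted p 0.337).

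The other CALM3 probe, at transcript position 249 (chr19:47111489-47111548), was at 0.05, -1.08 and 0.12 on the miR-338-5p arrays and at 0.01, 1.11 and 0.30 on the miR-421 arrays. It was low on 1 array and high on 1 array, and neither mean passed (-0.30 and 0.48; limma adjusted p 0.58 and 0.294). Its root mean square distance to the first probe over the 6 arrays was 0.59. Its distance to CALML3, a calmodulin-like gene, was 0.16, the smallest of 21595 genes, and CALML3 was at -0.04, -0.71, 0.16, 0.03, 1.14 and 0.43 on the same arrays. This comparison was chosen after the values were seen.

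The stretches of both probes that were most alike are printed here because the probes move together, with the bases that differ in capitals (hg19, chr19:47111489-47111509 and chr10:5567118-5567138). They share 16 of 21 bases at the start of the CALM3 probe and the end of the CALML3 probe. Whether either probe takes up RNA of the other gene was not tested.

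CALM3 probe: ggAgaTggcACTatcaccacc

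CALML3 probe: ggGgaCggcTGCatcaccacc

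**Figure D4:**
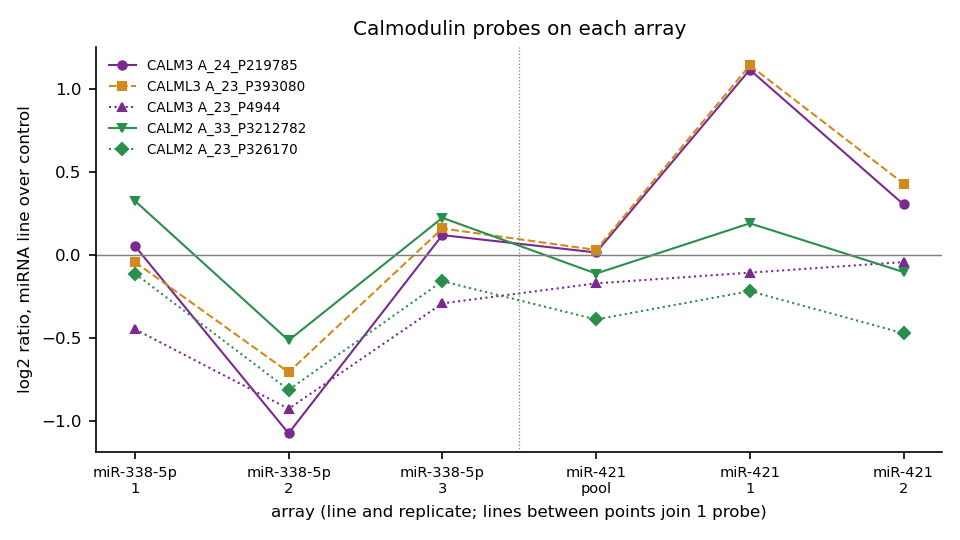
Log2 ratio over control of the CALM2 and CALM3 probes and the CALML3 probe on each of the 6 arrays, with the points of a probe joined. The CALM3 probe A_24_P219785 and the CALML3 probe run together (root mean square distance 0.16), while the other CALM3 probe is below 0 on all arrays.

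RCAN1 (NM_004414, chr21:35889009-35889068, minus strand) was at 0.30, 0.40 and 0.06 in the miR-338-5p line and at -0.04, -0.10 and -0.01 in the miR-421 line. All 3 samples of one line were above control and all 3 of the other just below it. The probe was dim (control level 6.52 to 6.63 on the log2 intensity scale), so the miR-421 values can understate a fall. The means were 0.25 ± 0.18 and -0.05 ± 0.05 (SD, n = 3 each; limma adjusted p 0.0947 and 0.686), and neither passed. The difference of 0.30 did not pass either (limma adjusted p 0.311; 95% interval without adjustment 0.04 to 0.56).

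Over the 12 tested member probes, 2 were past the threshold of 0.05 in the miR-338-5p line, where 8.98% of all tested probes were, and 2 in the miR-421 line, where 21.6% were. In the difference between the lines it was 1 of 12, beside 0.0473% of all probes. PCP4L1 and PPP3CA, chosen by these contrasts, make up all of these but the CALM3 probe, so nothing is read from the counts. Without these genes, the counts of limma calls were 1, 0 and 0 of 10, and 4, 1 and 2 of 10 had an unadjusted p under 0.05, as had 27.2%, 37.5% and 13.7% of all tested probes. The lines did not overlap for 4 of 12 probes (PCP4L1, PPP3CA, the CALM3 probe at position 1977 and RCAN1), as for 19.8% of all tested probes.

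The wider pathway was followed through a list of 58 genes, of which 50 were tested with 1 probe each. In the miR-338-5p line 1 rose and 2 fell, where 3.98% of all genes rose and 5.25% fell. In the miR-421 line 6 rose and 5 fell, where 10.0% of all genes rose and 12.6% fell. Median log2 ratios were -0.11 and -0.0036, where those of all genes were -0.00064 and 0.0062. In the difference between the lines 0 of 50 passed limma's test, and 10 had an unadjusted p under 0.05, as had 14.3% of all genes. The counts given below for parts of the list are small, and nothing is read from them.

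Of the calcineurin regulators, 2 of 6 tested fell in both lines by their brightest probe. Of all genes, 5.25% fell in the miR-338-5p line and 12.6% in the miR-421 line. RCAN2, a relative of RCAN1 that also binds calcineurin, was at -1.47, -0.50 and -1.61 on the miR-338-5p arrays and at -0.79, -1.19 and -0.66 on the miR-421 arrays. All 6 samples were below control, and the mean falls of 1.19 and 0.88 passed (limma adjusted p 0.0335 and 0.0424), each in 9 of 16 alternatives. The first was lost without miR-338-5p replicate 1 or 3 (0.121 and 0.128) or without the pool or miR-421 replicate 2 (0.0667 and 0.0685). The second was lost without miR-338-5p replicate 1 (0.0643) or without the pool, replicate 1 or replicate 2 of miR-421 (0.112, 0.154 and 0.119), as adjusted p in limma. A dimmer probe of RCAN2 was at -0.05 and 0.13. FKBP1A, the immunophilin through which the drug FK506 inhibits calcineurin, fell by 0.31 ± 0.03 and 0.46 ± 0.11 (SD, n = 3 each; limma adjusted p 0.0324 and 0.00771). The call held in 5 of 16 alternatives for miR-338-5p, where it was kept only without miR-421 replicate 1 among the arrays left out, and in 13 of 16 for miR-421, where it was lost without miR-421 replicate 2 (limma adjusted p 0.059). The means of its other probes ran from -0.43 to 0.28 and from -0.48 to 0.02. In the authors' table FKBP1A was at -0.03 in the miR-338-5p line and RCAN2 at -0.26 in the miR-421 line.

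PPIA, cyclophilin A, through which the drug cyclosporin inhibits calcineurin, was counted as not passing by its brightest probe, at -0.55 and -0.33 (limma adjusted p 0.124 and 0.256). Its 4 other probes all passed as lower in both lines, with means from -0.90 to -0.76 and from -0.60 to -0.54 (highest limma adjusted p 0.0252 and 0.0327). This gene has many near-identical pseudogene copies, so its probes may not read it alone. It was named after its values were seen.

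Of the calcineurin targets, 1 of 12 rose in the miR-338-5p line, beside 3.98% of all genes, and 2 rose in the miR-421 line, beside 10.0%. MEF2D, a transcription factor that calcineurin dephosphorylates, was at 0.83, 0.68 and 0.85 on the miR-338-5p arrays and at 1.07, 0.85 and 1.06 on the miR-421 arrays. It rose by 0.79 and 0.99 (limma adjusted p 0.00608 and 0.00253), in 14 and 16 of 16 alternatives. Its other probe, at 0.03 and 0.38, passed in the miR-421 line only (limma adjusted p 0.869 and 0.0426). CRTC1, a coactivator of CREB, rose by 0.54 ± 0.38 in the miR-421 line (SD, n = 3; limma adjusted p 0.0414), a call that held in 6 of 16 alternatives and, among the arrays left out, only without the pool. The control level of this CRTC1 probe ran from 9.34 to 11.35 over the 6 arrays, on the log2 intensity scale. That of the other CRTC1 probe ran from 9.63 to 9.89, and its mean in the miR-421 line was -0.16. Over the alternatives CRTC1 ran from 0.23 to 0.72, and MEF2D in the miR-338-5p line from 0.50 to 0.94. NFATC1 to NFATC4, the NFAT genes on the list, did not pass in either line, with means between -0.11 and 0.24 for miR-338-5p and between -0.24 and 0.09 for miR-421.

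NRGN, neurogranin, which holds calmodulin through an IQ motif as PCP4 does, was at 0.96, 1.12 and 1.07 in the miR-421 line and at -0.22, -0.10 and -0.88 in the miR-338-5p line. It rose by 1.05 ± 0.08 in the miR-421 line (SD, n = 3; limma adjusted p 0.0097) and the call was lost without miR-421 replicate 2 (limma adjusted p 0.0654, from a range of 0.00313 to 0.0654 over 16 alternatives). The difference between the lines, -1.45, did not pass (limma adjusted p 0.0879). GAP43, the other small IQ motif protein on the list, did not pass in either line.

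Of the 10 tested genes for calcium entry, release and export, 3 rose and 1 fell in the miR-421 line, where 10.0% of all genes rose and 12.6% fell. In the miR-338-5p line 0 passed, beside 9.23% of all genes. ITPR3, a calcium release channel of the endoplasmic reticulum, rose by 0.81 ± 0.21, and ORAI3, a subunit of the store-operated calcium channel, rose by 0.59 ± 0.16 (SD, n = 3 each; limma adjusted p 0.00634 and 0.00784). Each of these calls held in 15 of 16 alternatives, and that of ORAI3 was lost without miR-421 replicate 2 (limma adjusted p 0.0553). A dimmer probe of ORAI3 did not share the rise, with a mean of 0.12 in the miR-421 line (limma adjusted p 0.34). ORAI1, the main subunit of that channel, rose by 0.38 (limma adjusted p 0.0331), and ATP2B1, a calcium pump of the plasma membrane, fell by 0.22 (0.0393). These calls held in 9 and 8 of 16 alternatives. The ATP2B1 probe was close to background, and its value ran from -1.39 to -0.19 over the alternatives, the lowest with the log ratio of the image software. ORAI3 and ORAI1 reached 1.15 and 0.57. That of ORAI1 was lost without miR-338-5p replicate 3, the pool or miR-421 replicate 2 (limma adjusted p 0.0551, 0.123 and 0.141), and that of ATP2B1 without any one of the 6 arrays (0.054 to 0.155).

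Among the kinases, 1 of 4 NFAT kinases and 1 of 12 calmodulin-dependent kinases fell in the miR-421 line, beside 12.6% of all genes. In the miR-338-5p line 0 of either passed, beside 9.23% of all genes. CAMK2D, the delta chain of calmodulin-dependent kinase II, fell by 0.46 ± 0.15 (limma adjusted p 0.014; 13 of 16 alternatives), a call lost without miR-421 replicate 1 or 2 (0.0523 and 0.0842). Its other probe was at -0.12. DYRK2, which phosphorylates NFAT, fell by 0.68 ± 0.50 (SD, n = 3 each; limma adjusted p 0.0471), a call that held in 5 of 16 alternatives and, among the arrays left out, only without the pool. Over the alternatives CAMK2D ran from -0.86 to -0.42 and DYRK2 from -1.05 to -0.41. Of the 4 tested genes of the calmodulin family outside the members, 0 passed in either line by their brightest probe, beside 9.23% and 22.7% of all genes. A second probe of CALML4, a calmodulin-like gene, passed at -0.28 and -0.31 (limma adjusted p 0.034 and 0.0152).

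**Figure D5:**
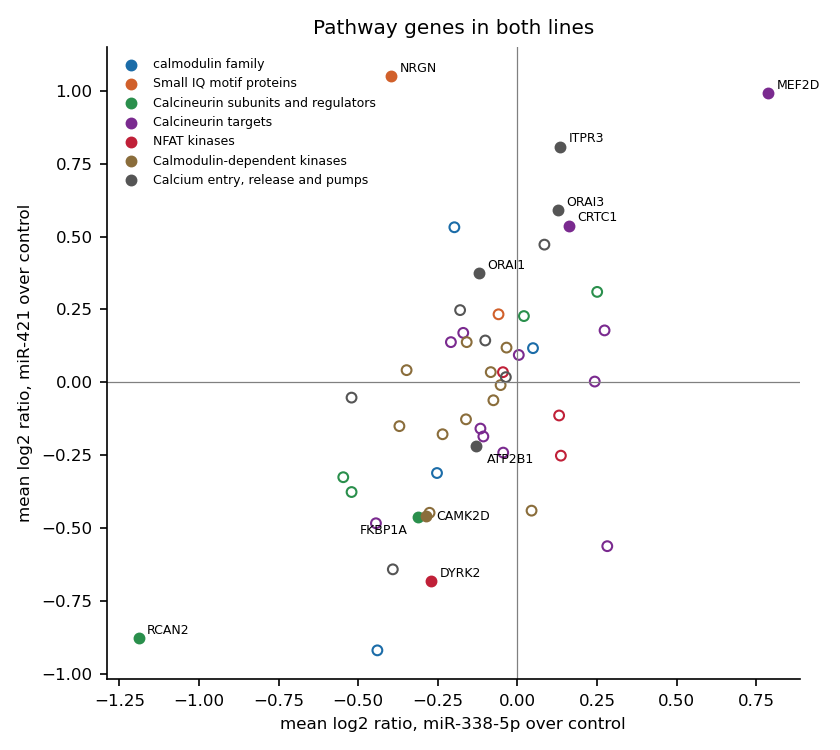
Mean log2 ratio in the miR-421 line against that in the miR-338-5p line for the 50 tested pathway genes, coloured by list; filled points passed the test in at least 1 line (limma, adjusted p under 0.05) and are named. MEF2D is high and RCAN2 low in both lines, and NRGN is high in the miR-421 line and below 0 in the miR-338-5p line.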

How the data were processed

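Messenger RNA was measured on 6 Agilent 2-colour arrays (1 slide, 1 scan date), after poly(A) tailing and oligo-dT labelling per the labels. The authors' image software was Feature Extraction 11.5.1.1, per the file headers. The spot intensities they deposited had no normalization. The deposited log10 ratios of that software and the deposited whole-series table of log2 ratios, whose normalization is not given in the sources used here, were alternatives only.

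Intensities were corrected by normexp (offset 50) and normalized by loess within each array (control spots at no weight). Outlier spots were left out, and a probe was tested if well above background in either dye on 3 of 6 arrays. R 4.3.3 and limma 3.58.1 fitted all 6 arrays with a mean per line (4 residual and 2.05 prior degrees of freedom). The tests were two-sided with Benjamini-Hochberg adjustment over all tested probes at 0.05. Levels of either dye followed Aquantile scaling. Where a gene had several probes, the brightest stood for it in counts of genes. If 1 control culture supplied all arrays, which the labels do not say, tests against control leave out the control's own spread, and a probe's dye bias enters both lines.

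Members and lists were chosen with earlier results of these data known. The named genes were all members, pathway genes past the threshold (up to 6 rises and 6 falls per line) and the 5 nearest patterns of PCP4L1 and PPP3CA. Genes carry the array's names; all 13 member accessions were found in RefSeq (GRCh38.p14) under the same symbol. Probe coordinates are hg19, per the file headers, with no exon or UTR annotation used. The fit was tested on simulated data. Of the probes searched for seed letters, those of the wider pathway are not reported here. Arrays had 44.3% to 47.9% of gene spots above background in Cy3 and 41.9% to 48.3% in Cy5, with 0 saturated gene spots, and their number limits the precision of every value.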

Additional observations from a re-analysis of the deposited data

Results flagged for a closer look

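The lines differed for PPP3CA by 2.21 on the log2 scale (miR-338-5p minus miR-421), a difference by which the gene was chosen. RCAN1, read by a dim probe, had opposite signs in the lines on all arrays, with a difference of 0.30 that did not pass the test (limma adjusted p 0.311). NRGN also had opposite signs on all arrays, with a difference of -1.45 (limma adjusted p 0.0879, and 0.0393 with a trended and robust variance).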

How the results depend on the processing

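In 16 alternatives each PCP4L1 stayed between -4.07 and -3.39 in the miR-338-5p line and between -3.44 and -2.998 in the miR-421 line, and PPP3CA between -2.36 and -2.27 in the miR-421 line. Member probes past the threshold in the miR-338-5p line (2) fell to 1 with the background subtracted, median centring, no filter on dim probes, the log ratio of the image software, the authors' table or the line's arrays alone, and were 1 with each array left out in turn, each time by the loss of CALM3. In the difference between the lines the 1 member call was 0 with median centring, no filter, the log ratio of the image software and the authors' table, and 0 after leaving out any array. The pathway count in the miR-338-5p line (3) was 0 in the authors' table, 1 in the line's arrays alone, and 1 to 9 with an array left out. It was 9 without miR-421 replicate 1, and 1 without miR-338-5p replicate 1 or 3, the pool or miR-421 replicate 2. The pathway count in the miR-421 line (11) was 7 in the authors' table and without the filter, and 2 to 10 with an array left out, the lowest without miR-421 replicate 2, and 7 without miR-338-5p replicate 1 or miR-421 replicate 1. The pathway count of the difference (0) was 1, NRGN, with a trended and robust variance. Of 477 recomputed values of other member probes, 12 lost a call (CALM3) and 1 gained it (CALM2). Of the 460 past the threshold in neither analysis, 44 changed sign. Replicate numbers 1 and 2 occur in both lines. Deviations from the line means correlated across probes at r = -0.14 and -0.21 for same-numbered samples and at 0.04 and 0.12 for crossed numbers. Such weak values cannot show whether the numbers pair the samples, and the main fit used no pairing. With a replicate block the difference had 0 member calls. The share of all calls in the miR-338-5p line that were lower was 57.9%, and from 44.3% (authors' table) to 82.0% (median centring) under other scalings. The causes of these changes were not tested. Dim probes such as PCP4 and lnc-PPP3CA-2 could not show a fall.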
